A study of Arabidopsis thaliana with 36 samples.

Results

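Root bends of *Arabidopsis thaliana* wild type (WT, Col-0) harvested at 24 h post-gravistimulation (hpg) were compared with WT bends harvested at 18 hpg. Turning a seedling bends its root and sets off one lateral root primordium (LRP) at the outer side of the bend, so that the hours after turning serve as a clock of primordium development. The comparison uses 6 of the 36 libraries of the series, 3 biological replicates at 24 hpg and 3 at 18 hpg, and 25889 genes of the 37973 rows of the count table had enough reads to be tested. Both groups carry no mutation or transgene, were grown as 4-day-old seedlings in continuous light before gravistimulation, and each library pooled bends cut from many seedlings. The other libraries are WT bends at 12, 30, and 36 hpg, WT root segments without LRP, and the same 6 stages of *puchi-1*, a mutant of an AP2/EREBP transcription factor gene. By the study's staging, WT primordia at 24 hpg spanned stages II to IV, whereas primordia at 18 hpg were mostly at stage II. A bend is the whole root segment, so the primordium is a small part of each sample beside epidermis, cortex, endodermis, pericycle, and vascular tissue. In such bulk tissue, fewer cells of a type and less RNA per cell cannot be told apart.

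A lateral root starts in the pericycle opposite a xylem pole, where founder cells divide first across and then along the root surface, and the stages are numbered by the cell layers so formed. The outer layer of the young primordium later takes on protoderm identity and makes wax and cutin, which form a thin cuticle over the emerging root. The overlying endodermis, cortex, and epidermis give way, which involves their Casparian strips, suberin, and water channels. Deeper in the bend, the parental xylem lays down secondary walls of cellulose, xylan, and lignin. Secondary walls are described first here, then the primordium surface, the overlying tissues, and the regulators.

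The 24 hpg libraries held 48.1 to 89.7 M (1000000) reads counted on genes, replicate 3 being the deepest, and the 18 hpg libraries held 39.0 to 48.6 M. On the first principal component of log2 CPM (counts per 1000000 reads of a library) of the 15 WT bend libraries, which took 58.9% of the variance, the 24 hpg libraries scored 13.1, 7.0, and 33.0, against -37.2, -17.8, and -23.7 for the 18 hpg libraries. The groups did not overlap there. On the second component (18.8%), 24 hpg replicate 3 lay at 36.8 and 18 hpg replicate 1 at -38.4, so that one library of each group stood apart. The same 18 hpg library had the lowest summed level of 12 touch and handling genes, 324 CPM, against 1375 and 1619 CPM in its fellow replicates and 855, 1341, and 1777 CPM at 24 hpg. Dates in the sample titles fall in July and August for 24 hpg and in March, June, and July for 18 hpg, and what the dates mark is not stated. Counts of genes are therefore also given without these 2 libraries. Pericycle and stele markers were present in every library, with sums of 884 to 1105 CPM at 24 hpg and 858 to 968 CPM at 18 hpg. The 4 root cap markers, of a tissue that a bend should lack, summed to 1.02 to 7.90 CPM at 24 hpg and 6.03 to 8.48 CPM at 18 hpg.

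**Figure D1:**
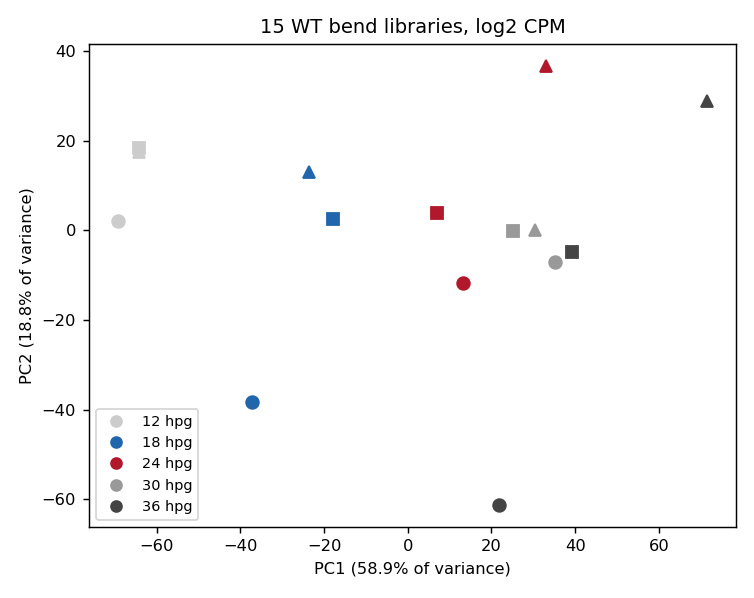
Scores of the 15 WT bend libraries on the first 2 principal components of log2 CPM (unitless scores, share of variance on each axis). Colours give the time after gravistimulation and the marker shapes give replicates 1 (circle), 2 (square), and 3 (triangle). The 24 hpg libraries lie at 7.0 to 33.0 on the first component and the 18 hpg libraries at -37.2 to -17.8.

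How many genes differed between 24 and 18 hpg depended on the test. With edgeR fitted to all 12 groups of the series, 0 of 25889 genes (0.0%) passed an adjusted p under 0.05 with a log2 fold change (log2FC, 24 over 18 hpg) beyond 1 or -1, and 0.0% passed the adjusted p alone. The smallest adjusted p of that test was 0.128. At an unadjusted p under 0.05 with the same limit on log2FC, 539 genes (2.08%) were higher and 261 (1.01%) lower at 24 hpg, and at the unadjusted p alone 1763 (6.81%) were higher and 1450 (5.6%) lower. DESeq2, the tool of the study, fitted to the 12 groups called 39 genes up (0.151%) and 16 down (0.0618%), and fitted to the 6 libraries alone it called 215 up (0.927%) and 168 down (0.725%). EdgeR fitted to the 15 WT bend libraries called 95 up (0.387%) and 20 down (0.0816%), whereas on the 6 libraries alone it called none in either direction (0.0% and 0.0%). The groups did not overlap for 2639 genes that were higher at 24 hpg (10.2%) and 2849 that were lower (11%). Here a gene is said to have risen or fallen only if DESeq2 on the 12 groups or edgeR on the 15 WT bends gave an adjusted p under 0.05, and both adjusted p-values are given. No limit on log2FC applies to this wording, whereas the genes counted as called by these tests also passed that limit. The share of all genes that meet the wording without the limit was not counted. This rule was adopted because the main test, edgeR on the 12 groups, called 0 genes. The log2FC and SE printed beside these adjusted p-values come from edgeR on the 12 groups. They therefore do not belong to the tests that gave the adjusted p. Passing either test is a looser rule than passing a single test, and genes that passed only one are less certain. Of the 95 genes called up on the WT bends, 23 were also called by DESeq2, and of the 20 called down, 8. Leaving out single libraries moved the WT bend calls strongly, to 26 without 24 hpg replicate 3, 16 without 18 hpg replicate 1, and 28 without 18 hpg replicate 3, from 115 with all.

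Many genes of the secondary wall of xylem were lower at 24 hpg. Of 15 xylem genes, 9 (60.0%) had an unadjusted edgeR p under 0.05 and were lower, 0 were higher, and the median log2FC was -0.74, against 5.6% lower and a median of 0.01 over all genes. With 24 hpg replicate 3 and 18 hpg replicate 1 both left out, 8 of 15 (53.3%) were lower at that p, with a median of -0.68, against 1.31% of all genes. *CESA7*, *CESA8*, and *CESA4* encode the cellulose synthase subunits of the secondary wall. *CESA7* (AT5G17420, chr5:5736630-5741500, TAIR10.1) had 32.6, 43.2, and 45.4 CPM at 24 hpg, against 87.7, 80.6, and 84.2 CPM at 18 hpg, or 40.4 ± 6.88 against 84.2 ± 3.54 CPM (SD, n = 3 each). Every 24 hpg library lay well below every 18 hpg library. *CESA7* fell with a log2FC of -1.06 (SE 0.29), with adjusted p = 0.0417 by DESeq2 and 0.0485 by edgeR on the WT bends. *CESA8* (AT4G18780, chr4:10312624-10316886) had 28.03, 41.6, and 41.4 CPM at 24 hpg, against 82.6, 71.3, and 75.5 CPM at 18 hpg. *CESA8* fell to the same extent, with a log2FC of -1.05 (SE 0.29, adjusted p = 0.0392 by DESeq2 and 0.0378 by edgeR on the WT bends).

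*CESA4* (AT5G44030, chr5:17714390-17719723) had 57.4, 77.3, and 96.4 CPM at 24 hpg, against 134, 142, and 126 CPM at 18 hpg, with no overlap. Its log2FC of -0.80 (SE 0.31) did not pass either test (adjusted p = 0.167 by DESeq2 and 0.115 by edgeR on the WT bends). The 250 bases before the start of *CESA4* are shown here because the 3 subunit genes share their direction and MYB factors of the secondary wall, such as MYB46, bind a 7-base element in wall gene promoters. The element was searched as ACCNANN, where the positions N were A or T, A or C, and C or T in that order, on both strands, in windows read from the RefSeq TAIR10.1 genome. The capitals mark the match in *CESA4*, at -81 from the gene start, on the minus strand.
CESA4, chr5:17714140-17714389, plus strand: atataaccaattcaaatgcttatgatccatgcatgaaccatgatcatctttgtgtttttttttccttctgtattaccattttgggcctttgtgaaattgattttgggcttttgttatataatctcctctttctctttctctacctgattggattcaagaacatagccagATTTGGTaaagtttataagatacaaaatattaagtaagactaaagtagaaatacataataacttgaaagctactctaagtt
The windows of 6 of the 15 xylem genes (40.0%) held the element, against 29.9% of 23091 windows of all protein-coding genes tested. *CESA7* and *CESA8* had no match in this window.

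The remaining wall genes shared the direction, with calls for several. *COBL4* (AT5G15630), a COBRA-like protein of cellulose deposition, had 8.23, 11.6, and 13.3 CPM at 24 hpg, against 32.8, 22.9, and 29.0 CPM at 18 hpg. *COBL4* fell with a log2FC of -1.35 (SE 0.33, adjusted p = 0.0176 by DESeq2 and 0.0345 by edgeR on the WT bends). *FLA11* (AT5G03170), a fasciclin-like arabinogalactan protein of stem and xylem walls, had 16.04, 19.4, and 19.9 CPM at 24 hpg, against 54.4, 39.0, and 39.1 CPM at 18 hpg. *FLA11* fell with a log2FC of -1.26 (SE 0.30, adjusted p = 0.0169 by DESeq2 and 0.0174 by edgeR on the WT bends), and over 18 other settings and sets of libraries its log2FC stayed between -1.34 and -1.08. Laccases polymerize lignin, and *LAC17* with 45.5, 62.6, and 86.6 CPM at 24 hpg, against 136, 133, and 120.5 CPM at 18 hpg, did not overlap between the groups but passed neither test (adjusted p = 0.108 by DESeq2). *LAC4* likewise had 61.9, 73.1, and 86.9 CPM at 24 hpg, against 139, 136, and 105 CPM at 18 hpg (log2FC -0.77). The xylan genes *IRX9* and *IRX10* had log2FC of -0.88 and -0.51, and *MYB46*, a master regulator of the secondary wall, -0.74, none of which passed either test. Among the 24 hpg libraries of *CESA4*, *LAC17*, *LAC4*, *IRX9*, and *IRX10*, replicate 3 was the highest and replicate 1 the lowest.

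Not every xylem gene was lower. *XCP1* and *XCP2*, proteases of the dying vessel element, had log2FC of -0.17 and -0.22 with overlapping groups, such as 199.6, 254, and 354 CPM at 24 hpg, against 280.1, 333, and 293 CPM at 18 hpg for *XCP1*. *VND6*, a NAC factor that starts metaxylem vessel formation, had 2.5, 4.1, and 3.3 CPM at 24 hpg, against 2.3, 2.2, and 2.3 CPM at 18 hpg (log2FC 0.52, not passing either test). *BFN1*, a nuclease of dying cells, had a log2FC of 0.66 with overlapping groups. The genes of wall polymers and of cell death within the list thus had different values, and the difference between them was not tested.

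**Figure D2:**
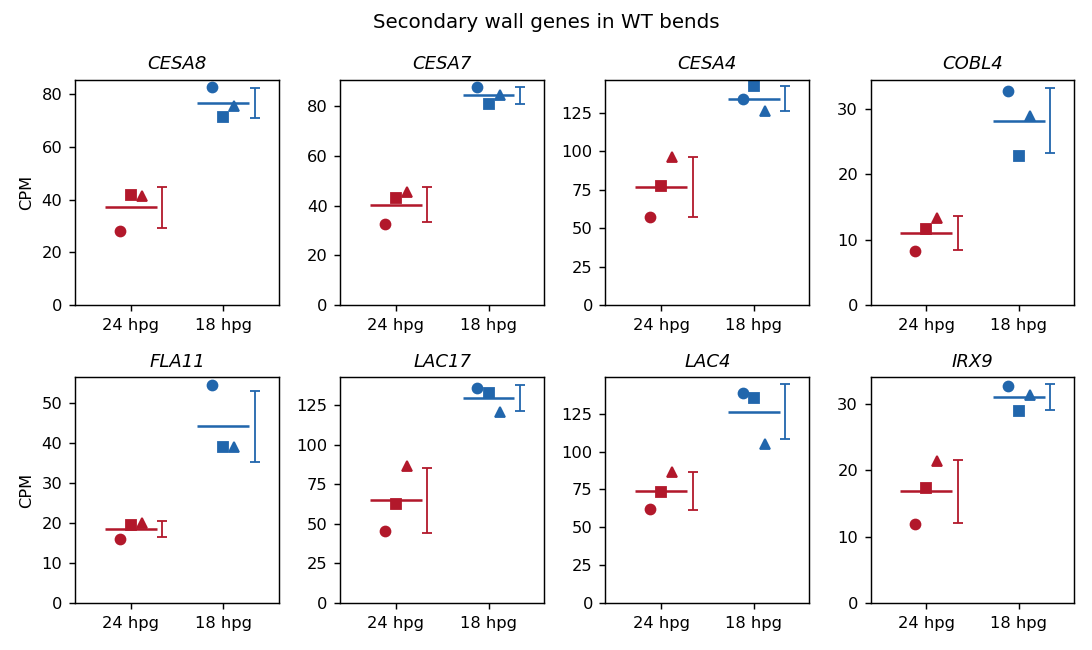
Level in CPM (linear axis from 0) of 8 secondary wall genes in each WT bend library at 24 hpg (red, left) and 18 hpg (blue, right). Marker shapes give replicates 1 to 3, horizontal lines the mean of 3 libraries, and bars the SD. In each of the 8 panels every 24 hpg point lies below every 18 hpg point.

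The 12 named genes that were lower by rank of p had log2FC of -1.72 to -1.05, and DESeq2 called 9 of them and edgeR on the WT bends 7. *FLA11*, *COBL4*, *CESA7*, and *CESA8*, given above, are among them and are included in both counts. Because the 12 were chosen by their p in the same libraries, both counts were largely fixed by that choice. *AGP19*, an arabinogalactan protein, had 3.41, 4.37, and 4.21 CPM at 24 hpg, against 16.1, 9.13, and 10.4 CPM at 18 hpg, and fell with a log2FC of -1.57 (SE 0.41, adjusted p = 0.0260 by DESeq2 and 0.0229 by edgeR on the WT bends). *LAC10*, another laccase, fell with a log2FC of -1.36 (adjusted p = 0.0467 by DESeq2 and 0.0331 by edgeR on the WT bends). *ALMT1*, a malate channel of the root that acts in aluminium tolerance, had 62.4, 55.1, and 37.5 CPM at 24 hpg, against 93.1, 141, and 111 CPM at 18 hpg. *ALMT1* fell by DESeq2 (log2FC -1.15, adjusted p = 0.0365) and had an adjusted p of 0.0621 by edgeR on the WT bends. The cellulase gene *GH9B5* and the cold and salt responsive gene *RCI2B* also fell by DESeq2 alone, with log2FC of -1.07 and -1.72 (adjusted p = 0.0393 and 0.0397). *TT4*, chalcone synthase, the entry enzyme of flavonoid synthesis, had 1295, 1581, and 1067 CPM at 24 hpg, against 3505, 2426, and 2399 CPM at 18 hpg. *TT4* fell by edgeR on the WT bends (log2FC -1.08, adjusted p = 0.0255) with an adjusted p of 0.0520 by DESeq2. The laccase *LAC2* (log2FC -1.42) and *LpxC2* (-1.47), which has near-identical copies among which reads may be split, had adjusted p = 0.0501 and 0.0510 by DESeq2 and passed neither test.

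At the other end, lipid transfer proteins, which carry lipids to the cuticle in aerial epidermis, were the list with the highest median. Of 9 listed genes 8 were tested, 4 (50%) had an unadjusted edgeR p under 0.05 and were higher, 0 were lower, and the median log2FC was 1.6, against 6.81% higher over all genes. On the WT bends, edgeR called 5 of the 8 up, against 0.387% of all genes in that fit. Without the 2 libraries that stood apart, 3 of 8 were still higher at the unadjusted p, with a median of 1.56, against 2.94% of all genes. *LTP6* (AT3G08770, chr3:2664069-2664888) had 4.59, 2.55, and 3.44 CPM at 24 hpg, against 0.104, 0.381, and 0.394 CPM at 18 hpg. *LTP6* rose with a log2FC of 3.55 (SE 1.01), adjusted p = 0.00359 by edgeR on the WT bends and 0.108 by DESeq2. *LTP1* had 14.1, 9.01, and 15.69 CPM at 24 hpg, against 0.835, 3.58, and 1.62 CPM at 18 hpg (log2FC 2.68, adjusted p = 0.0224 by edgeR on the WT bends and 0.131 by DESeq2). Its neighbour *LTP2* had 11.8, 6.43, and 11.6 CPM at 24 hpg, against 0.731, 1.80, and 1.53 CPM at 18 hpg (log2FC 2.86, adjusted p = 0.0156 by edgeR on the WT bends and 0.106 by DESeq2). The 2 genes are close paralogs that lie next to each other on chromosome 2, so reads may be shared between them. *LTP3* (log2FC 2.07, adjusted p = 0.0174) and *LTP8* (1.14, adjusted p = 0.0289) rose by edgeR on the WT bends too, and neither passed DESeq2 (adjusted p = 0.277 and 0.318). For *LTP8*, the unadjusted p of edgeR on the 12 groups was not under 0.05. *LTP4* and *LTP5* had log2FC of -0.68 and -0.72 with overlapping groups, and *DIR1*, which acts in systemic defence signalling, 0.85.

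The protoderm genes were mixed. *PDF1* (AT2G42840, chr2:17826071-17827648), a proline-rich protein gene widely used as a marker of the outermost layer, had 30.5, 16.5, and 21.8 CPM at 24 hpg, against 0.835, 4.41, and 3.61 CPM at 18 hpg. *PDF1* rose with a log2FC of 2.95 (SE 0.89), adjusted p = 0.0153 by edgeR on the WT bends and 0.281 by DESeq2. *PDF2*, an HD-ZIP IV factor of the protoderm, had 2.34, 1.75, and 1.81 CPM at 24 hpg, against 0.0522, 0.106, and 0.372 CPM at 18 hpg, and rose with a log2FC of 3.43 (SE 1.02, adjusted p = 0.00873 by edgeR on the WT bends and 0.0969 by DESeq2). Its paralog *ATML1* had 0.165, 0.195, and 0.157 CPM at 24 hpg, against 0, 0.0212, and 0.110 CPM at 18 hpg, with no overlap but few reads (unadjusted p = 0.172 by edgeR). Of the 10 protoderm and HD-ZIP IV genes tested, these were the 3 without overlap that were higher, 1 was lower without overlap, and the median log2FC was 0.03. Without overlap, 10.2% of all genes were higher and 11% lower. The list includes *GL2* and *ANL2*, which act in the differentiated root epidermis.

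Cuticle genes had positive medians, 0.82 for 9 wax genes and 0.56 for 13 cutin genes. At the unadjusted edgeR p, 3 wax genes and 5 cutin genes were higher and 0 were lower, against 6.81% higher over all genes. Without overlap, 6 of the 9 wax genes were higher and 2 lower, against 10.2% and 11% of all genes. DESeq2 on the 6 libraries called 3 of the 9 up and 1 down, against 0.927% and 0.725% of all genes in that fit. Without both libraries that stood apart the counts higher were 1 wax and 0 cutin genes, with medians of 0.85 and 0.42, against 2.94% of all genes. *CER3*, which acts in alkane synthesis of wax, had 40.2, 29.0, and 30.2 CPM at 24 hpg, against 14.4, 22.2, and 19.6 CPM at 18 hpg, and rose by edgeR on the WT bends (adjusted p = 0.0345, 0.0561 by DESeq2) with a log2FC of 0.82 (SE 0.23), under the limit of 1. *LTPG1*, a membrane-anchored lipid transfer protein of wax export, had 27.2, 19.0, and 20.6 CPM at 24 hpg, against 4.72, 7.73, and 7.69 CPM at 18 hpg (log2FC 1.73, adjusted p = 0.0512 by edgeR on the WT bends). *BDG1*, an epidermal hydrolase of cutin formation, had 2.75, 2.05, and 2.34 CPM at 24 hpg, against 0.548, 0.720, and 0.832 CPM at 18 hpg. *BDG1* rose with a log2FC of 1.76 (SE 0.71, adjusted p = 0.0289 by edgeR on the WT bends and 0.200 by DESeq2). The cutin genes *DCR*, *GPAT6*, *GPAT8*, and *CYP86A2*, which make and esterify cutin monomers, had log2FC of 0.79 to 1.05 and passed neither adjusted test.

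The exporter gene *ABCG11* had 13.4, 8.87, and 9.95 CPM at 24 hpg, against 2.61, 5.59, and 4.93 CPM at 18 hpg (log2FC 1.29, adjusted p = 0.0533 by edgeR on the WT bends). Its promoter and that of *PDF1* are shown because HD-ZIP IV factors such as PDF2 and ATML1 bind the L1 box, searched as TAAATGCA and TAAATGTA on both strands, and capitals mark the 2 matches in *ABCG11*, at -82 and -47 from the gene start.
ABCG11, chr1:6142152-6142401, plus strand: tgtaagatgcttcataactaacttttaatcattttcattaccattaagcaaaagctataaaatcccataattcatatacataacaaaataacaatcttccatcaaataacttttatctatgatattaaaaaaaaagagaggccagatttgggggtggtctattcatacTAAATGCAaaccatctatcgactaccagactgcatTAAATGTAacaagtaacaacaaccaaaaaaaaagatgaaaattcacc
PDF1, chr2:17827649-17827898, minus strand: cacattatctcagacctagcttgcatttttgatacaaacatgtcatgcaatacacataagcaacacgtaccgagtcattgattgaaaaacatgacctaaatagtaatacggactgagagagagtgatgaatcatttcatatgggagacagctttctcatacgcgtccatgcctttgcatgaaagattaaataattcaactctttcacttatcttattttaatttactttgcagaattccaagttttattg
The L1 box stood in 4.4% of all windows, in 2 of 10 protoderm windows (20.0%), 1 of 9 wax windows (11.1%), and 0 of 8 lipid transfer protein and 0 of 13 cutin windows. The window of *PDF1* held no match to these letters, and sequence outside the window was not searched.

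**Figure D3:**
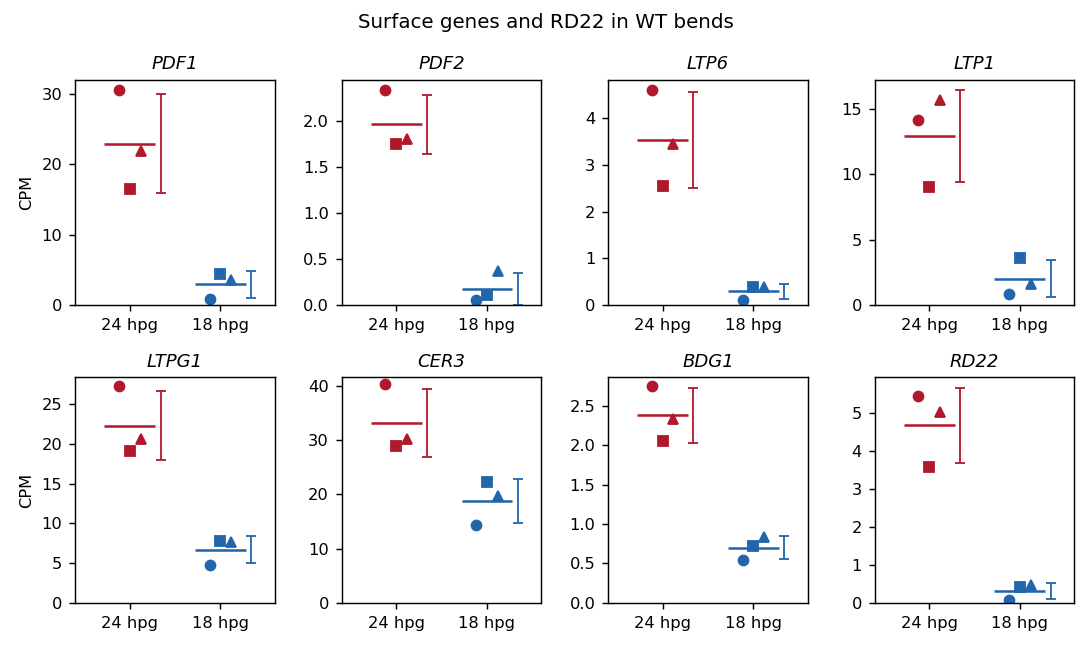
Level in CPM (linear axis from 0) of 7 protoderm, lipid transfer, and cuticle genes and of *RD22* in each WT bend library at 24 hpg (red, left) and 18 hpg (blue, right). Marker shapes give replicates 1 to 3, horizontal lines the mean of 3 libraries, and bars the SD. In every panel the 3 points of 24 hpg lie above those of 18 hpg.

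Suberin, a polyester of fatty acids and phenolics, is laid down in the endodermis and around emerging laterals. The 15 suberin genes had a median log2FC of 0.35, with 2 higher and 0 lower at the unadjusted edgeR p, against 6.81% higher over all genes. *MYB93*, an R2R3-MYB expressed in the endodermis over primordia, had 56.4, 75.6, and 106 CPM at 24 hpg, against 34.2, 45.6, and 28.5 CPM at 18 hpg. *MYB93* rose with a log2FC of 1.13 (SE 0.42, adjusted p = 0.0397 by edgeR on the WT bends and 0.153 by DESeq2). *FAR1*, which makes the fatty alcohols of suberin, rose as well (log2FC 1.08, adjusted p = 0.0211 by edgeR on the WT bends and 0.315 by DESeq2). In the main test, edgeR on the 12 groups, the unadjusted p of *FAR1* was not under 0.05. *CYP86A1*, the hydroxylase of root suberin, had 407, 610.5, and 663 CPM at 24 hpg, against 239, 365, and 209 CPM at 18 hpg, and passed neither test (log2FC 1.05, adjusted p = 0.0578 by edgeR on the WT bends). Without the 2 libraries that stood apart, 0 of the 15 suberin genes were higher at the unadjusted p, with a median of 0.27, against 2.94% of all genes.

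Lists of the mature outer tissues had the most negative medians but few calls. The 11 Casparian strip genes had a median log2FC of -1.70, the 18 root hair genes -1.33, and the 18 aquaporins -0.75, and at the unadjusted edgeR p the numbers lower were 1, 1, and 6, against 5.6% of all genes. Without overlap 7 Casparian strip genes, 9 root hair genes, and 13 aquaporins were lower, against 11% of all genes, and 9 of the 15 xylem genes were. *ESB1*, needed for ordered Casparian strips, had 27.8, 22.6, and 14.3 CPM at 24 hpg, against 88.1, 56.2, and 65.6 CPM at 18 hpg. *ESB1* fell by edgeR on the WT bends (log2FC -1.70, SE 0.95, adjusted p = 0.0289) and not by DESeq2 (adjusted p = 0.354). The unadjusted p of *ESB1* by edgeR on the 12 groups, the fit of that log2FC and SE, was not under 0.05. *CASP1*, a scaffold protein of the strip, had 8.72, 8.21, and 1.70 CPM at 24 hpg, against 56.7, 24.8, and 36.4 CPM at 18 hpg, and with the wide spread passed neither test (log2FC -2.67, SE 1.49). The vacuolar water channel *TIP1;1* had 431, 295, and 296 CPM at 24 hpg, against 1199, 804, and 844 CPM at 18 hpg (log2FC -1.48, adjusted p = 0.0561 by edgeR on the WT bends). Aquaporins together summed to 3997, 3453, and 3580 CPM at 24 hpg, against 7244, 5755, and 6213 CPM at 18 hpg. At 18 hpg replicate 1 was the highest, and without it and 24 hpg replicate 3 the number of aquaporins, Casparian strip genes, and root hair genes lower at the unadjusted p was 0 in each list, against 1.31% of all genes. The medians were then -0.59 for aquaporins, -1.07 for Casparian strip genes, and -0.87 for root hair genes.

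None of the 12 early regulators of LRP formation was called by DESeq2 or by edgeR on the WT bends, and 3 of them had a log2FC above 0. *PUCHI*, the AP2/EREBP factor that limits primordium growth, had 16.5, 15.1, and 13.9 CPM at 24 hpg, against 15.9, 14.5, and 19.7 CPM at 18 hpg (log2FC -0.14). *LBD16*, an auxin-induced factor of founder cells, had 17.2, 14.0, and 15.5 CPM at 24 hpg, against 13.7, 11.9, and 14.6 CPM at 18 hpg (log2FC 0.22). For both genes the groups overlapped. *GATA23*, which marks founder cell identity, had 0.0413, 0.351, and 0.201 CPM at 24 hpg, against 0.992, 0.318, and 0.723 CPM at 18 hpg, again with overlap (log2FC -1.75, unadjusted p = 0.0802 by edgeR). Of the 12 early regulators, 2 were lower at the unadjusted p, *IAA14* (log2FC -0.38) and *MYB124* (-0.63), a MYB known from the stomatal lineage. Over all genes 5.6% were lower at that p. Without overlap 4 of the 12 were lower, against 11% of all genes. The 6 PLETHORA genes, which encode factors of root meristem formation, had log2FC of 0.05 to 0.64, all positive and none below the unadjusted p.

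Genes of later primordium identity mostly had positive log2FC. *STY2*, of the SHI/STY family that activates auxin synthesis genes, had 4.22, 3.26, and 3.78 CPM at 24 hpg, against 1.096, 1.80, and 0.876 CPM at 18 hpg. *STY2* rose with a log2FC of 1.57 (SE 0.68, adjusted p = 0.0289 by edgeR on the WT bends and 0.229 by DESeq2). All 9 members tested had a positive log2FC, with a median of 0.80, and 3 had an unadjusted p under 0.05, *STY2*, *LRP1*, and *SRS6*. Over all genes tested, 13424 of 25889 had a positive log2FC and 6.81% were higher at that p. *LRP1*, named for its expression in LRP, had 16.9, 14.9, and 16.03 CPM at 24 hpg, against 10.5, 9.39, and 9.99 CPM at 18 hpg, with no overlap (log2FC 0.68, adjusted p = 0.0963 by edgeR on the WT bends). *WOX5*, the homeobox gene of the quiescent centre, had 5.17, 3.88, and 4.32 CPM at 24 hpg, against 2.58, 2.48, and 2.72 CPM at 18 hpg, and passed neither test (log2FC 0.78, SE 0.25, adjusted p = 0.0799 by DESeq2 and 0.0600 by edgeR on the WT bends). *SCR*, of the ground tissue and quiescent centre, had 35.7, 31.5, and 27.6 CPM at 24 hpg, against 37.9, 38.0, and 43.7 CPM at 18 hpg (log2FC -0.34). The 10 stem cell niche genes had a median log2FC of 0.19.

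The medians of 4 auxin lists were -0.01 for 29 Aux/IAA repressors, -0.14 for 14 auxin transport genes, -0.01 for 11 auxin synthesis genes, and 0.23 for 6 GH3 genes, which conjugate auxin. The medians of 4 cytokinin lists were -0.39 for 10 type-A response regulators, 0.17 for 13 synthesis genes, 0.11 for 7 oxidases, and 0.09 for 6 response factors. *PIN5*, an auxin carrier of the endoplasmic reticulum, had 16.7, 21.7, and 19.8 CPM at 24 hpg, against 10.5, 5.89, and 6.72 CPM at 18 hpg. *PIN5* rose by both tests (log2FC 1.33, SE 0.37, adjusted p = 0.0458 by DESeq2 and 0.0184 by edgeR on the WT bends). The influx carrier *AUX1* had 124, 111, and 85.5 CPM at 24 hpg, against 145, 142, and 152 CPM at 18 hpg, and fell by DESeq2 (log2FC -0.45, SE 0.13, adjusted p = 0.0499, 0.117 by edgeR on the WT bends). The repressor gene *IAA27* had 59.0, 65.8, and 64.1 CPM at 24 hpg, against 34.7, 45.7, and 38.2 CPM at 18 hpg, and rose by edgeR on the WT bends (log2FC 0.67, adjusted p = 0.0255, 0.370 by DESeq2). By edgeR on the 12 groups, the unadjusted p of *IAA27* was not under 0.05. *YUC6*, an auxin synthesis enzyme, rose slightly by edgeR on the WT bends (log2FC 0.40, adjusted p = 0.0485, 0.251 by DESeq2). *ARR5*, a primary target of cytokinin, had 24.0, 29.6, and 26.1 CPM at 24 hpg, against 40.8, 37.5, and 35.04 CPM at 18 hpg, and passed neither test (log2FC -0.51).

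The log2FC was below 0 for 20 of 26 mitotic genes and 20 of 21 replication genes, with medians of -0.12 in both lists. Over all genes tested, 13424 of 25889 had a log2FC above 0. At the unadjusted p, 2 mitotic genes and 1 replication gene were lower, against 5.6% of all genes. *CYCA2;2* had 11.1, 12.1, and 11.5 CPM at 24 hpg, against 16.8, 15.5, and 15.05 CPM at 18 hpg (log2FC -0.45, adjusted p = 0.0600 by edgeR on the WT bends). D cyclins, which link growth signals to the start of the cycle, went both ways. *CYCD3;1* had 19.9, 22.4, and 21.7 CPM at 24 hpg, against 10.5, 12.3, and 12.1 CPM at 18 hpg, and rose by edgeR on the WT bends (log2FC 0.87, adjusted p = 0.00631, 0.212 by DESeq2). *CYCD5;1* had 3.43, 4.09, and 3.71 CPM at 24 hpg, against 4.67, 6.08, and 6.29 CPM at 18 hpg, and fell by DESeq2 (log2FC -0.60, SE 0.14, adjusted p = 0.00946, 0.0578 by edgeR on the WT bends).

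The 12 named genes that were higher by rank of p had log2FC of 1.09 to 8.29, and DESeq2 called 10 of them and edgeR on the WT bends 6. *PIN5* and *LTP6*, given above, are among them. Because the 12 were chosen by their p in the same libraries, the 10 and 6 calls were largely fixed by that choice. *TBL4*, of a family that acetylates wall polysaccharides, had 8.23, 15.71, and 33.1 CPM at 24 hpg, against 3.05, 3.01, and 2.72 CPM at 18 hpg. *TBL4* rose with a log2FC of 2.70 (SE 0.62, adjusted p = 0.00800 by DESeq2 and 0.0199 by edgeR on the WT bends). *TLL1*, a lipase-like gene, had 6.22, 33.6, and 31.2 CPM at 24 hpg, against 1.85, 2.14, and 3.61 CPM at 18 hpg, and rose with a log2FC of 3.22 (SE 0.88, adjusted p = 0.0250 by DESeq2 and 0.0288 by edgeR on the WT bends). *CYP76C1*, a cytochrome P450 of monoterpenol oxidation, and *HIPP22*, a heavy metal-associated protein gene, also rose by both tests, with log2FC of 1.82 and 2.2. *MT2A*, a metallothionein, had 12.0, 17.4, and 36.3 CPM at 24 hpg, against 7.83, 7.59, and 9.70 CPM at 18 hpg, and rose by DESeq2 (log2FC 1.39, adjusted p = 0.00800). In *TBL4*, *MT2A*, *J11* (log2FC 1.09, adjusted p = 0.0172 by DESeq2), and *CP12-2* (1.17, 0.0181), 24 hpg replicate 3 was the highest library. For *BCAT-2*, of branched-chain amino acid metabolism, the levels were 0.641, 0.0975, and 8.50 CPM at 24 hpg, against 0, 0.0212, and 0 CPM at 18 hpg, so replicate 3 lay far above the other replicates of 24 hpg in a gene that DESeq2 called (adjusted p = 0.00668). The thioredoxin gene *TH8* rose by DESeq2 (log2FC 2.87, adjusted p = 0.0176), and *CRK36*, a receptor-like kinase gene, passed neither test (1.63, 0.0570 by DESeq2).

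Ranked by p, 24 genes without a symbol stood above the last of these, and the 3 of them named here were chosen after their values were seen, as those with the smallest p that met the other conditions for a named gene. AT1G02650, annotated as a tetratricopeptide repeat-like protein, had 0.889, 1.07, and 1.55 CPM at 24 hpg, against 0.0783, 0.276, and 0.197 CPM at 18 hpg, and rose with a log2FC of 2.64 (adjusted p = 0.000517 by DESeq2 and 0.0289 by edgeR on the WT bends). AT2G01990, annotated as XRI1-like, had 6.08, 8.03, and 8.81 CPM at 24 hpg, against 1.51, 2.33, and 2.3 CPM at 18 hpg, and rose with a log2FC of 1.9 (adjusted p = 0.000597 and 0.0118 in the same order). AT2G44130, a kelch repeat protein gene, rose with a log2FC of 1.78 (adjusted p = 0.00139 and 0.0289). A lack of overlap between the groups was a condition of this choice.

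Single members of other lists also passed a test. *PRR7*, a pseudo-response regulator of the circadian clock, had 23.5, 22.01, and 28.3 CPM at 24 hpg, against 13.5, 13.3, and 11.7 CPM at 18 hpg, and rose by both tests (log2FC 0.94, SE 0.22, adjusted p = 0.0187 by DESeq2 and 0.0153 by edgeR on the WT bends). *RD22*, a dehydration and abscisic acid responsive gene, had 5.44, 3.57, and 5.02 CPM at 24 hpg, against 0.0783, 0.424, and 0.460 CPM at 18 hpg, and rose by both tests (log2FC 3.82, SE 1.15, adjusted p = 0.0499 by DESeq2 and 0.00151 by edgeR on the WT bends). Among 12 genes of emergence and cell separation, *HAE*, the receptor kinase of organ abscission, had 3.78, 6.16, and 6.77 CPM at 24 hpg, against 2.402, 2.80, and 3.29 CPM at 18 hpg, and passed neither test (log2FC 0.98, adjusted p = 0.0656 by DESeq2). The polygalacturonase gene *ADPG2*, which loosens pectin between cells, had 4.69, 1.21, and 1.24 CPM at 24 hpg, against 0.157, 0.360, and 0.591 CPM at 18 hpg (log2FC 2.66, adjusted p = 0.0532 by edgeR on the WT bends). All 22 genes of photosynthesis that were tested had a positive log2FC, with a median of 0.75 and 6 higher at the unadjusted p. Over all genes tested, 13424 of 25889 had a positive log2FC and 6.81% were higher at that p. The 22 genes summed to 690.4, 749, and 1159 CPM at 24 hpg, against 778, 479, and 594 CPM at 18 hpg, so the groups overlapped. Without 24 hpg replicate 3 the median was 0.37 and none of the 22 passed the unadjusted p, against 4.56% higher over all genes. Without 18 hpg replicate 1 the median was 0.91 and 7 were higher, against 4.81% of all genes. The part of these libraries in the list's values was not tested further, and members of the chlorophyll-binding families share sequence.

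**Figure D4:**
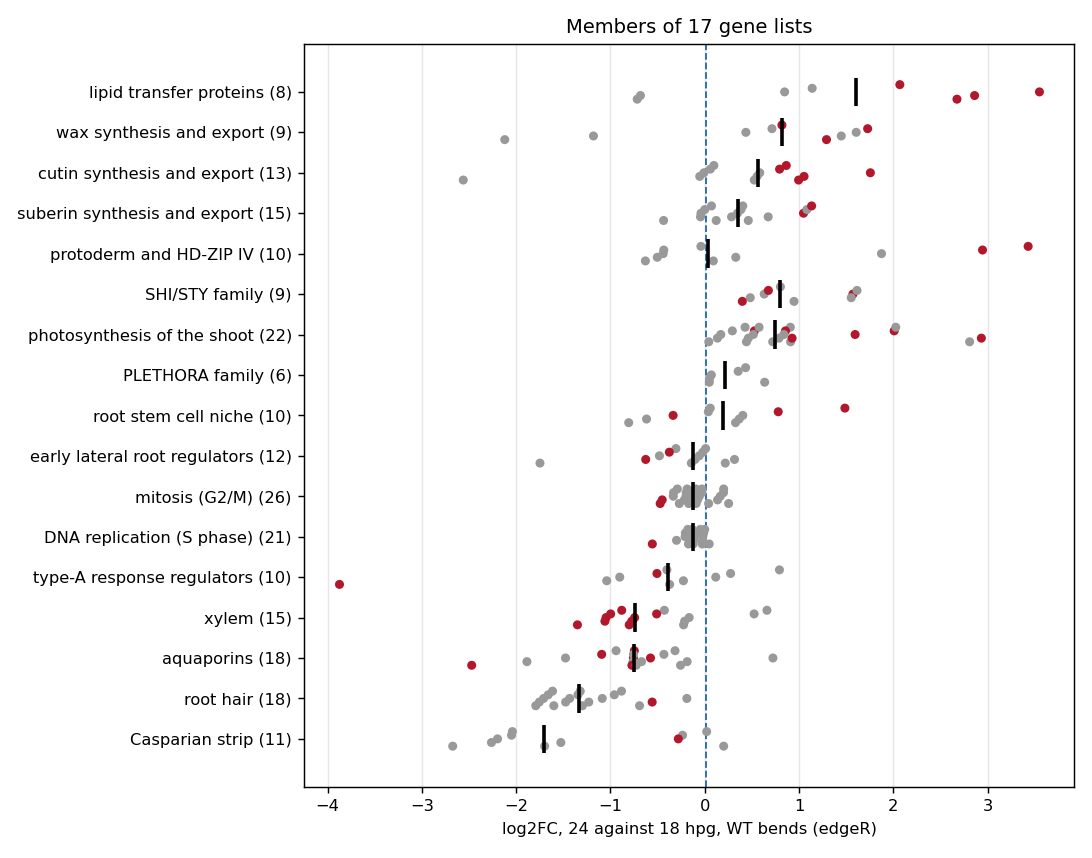
Log2FC of 24 against 18 hpg in WT bends (edgeR, 12 groups) for each member of 17 gene lists, the number of genes tested in brackets. Red points have an unadjusted p under 0.05, grey points do not, black bars are list medians, and the dashed line is the median of all genes (0.01). Lipid transfer proteins have the highest median (1.6) and Casparian strip genes the lowest (-1.70), and 9 of 15 xylem points are red on the left side.

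A separate measure was taken from libraries outside the comparison, WT bends at 30 and 36 hpg together against 12 hpg. In that contrast, edgeR called 1482 genes up (5.72%) and 1769 down (6.83%) at an adjusted p under 0.05 and the limit on log2FC. Of the 539 genes higher at 24 than at 18 hpg at the unadjusted p, 283 (52.5%) were called up there, 19.1% of the 1482, and 9 were called down. Of the 261 lower genes, 114 (43.7%) were called down, 6.44% of the 1769, and 0 up. Of the 95 genes that edgeR called up on the WT bends, a fit that uses the 12, 30, and 36 hpg libraries for its spread, 94 were called up late, and so were 35 of the 39 by DESeq2. By list, 13 of 15 xylem genes, 8 of 11 Casparian strip genes, 12 of 18 root hair genes, and 13 of 18 aquaporins were called down late. Called up were 7 of 8 lipid transfer proteins, 7 of 9 SHI/STY genes, 6 of 9 wax genes, 9 of 15 suberin genes, and 3 of 22 photosynthesis genes. Called in the other direction were 2 wax genes and 1 suberin gene, which were down, and 1 aquaporin, which was up.

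Over all 5 times, some members had means in one order and others did not. *PDF1* averaged 0.0890, 2.95, 22.9, 50.2, and 85.2 CPM over the 5 times from 12 to 36 hpg, higher at each later time. *CESA4* averaged 217, 134, 77.0, 38.9, and 52.5 CPM, with its lowest level at 30 hpg. *CESA8* at 125, 76.5, 37.0, 23.3, and 36.2 CPM had the same order of times as *CESA4*. *COBL4* averaged 43.6, 28.2, 11.05, 7.02, and 11.5 CPM, also lowest at 30 hpg but slightly higher at 36 than at 24 hpg. *PRR7* averaged 6.40, 12.8, 24.6, 22.03, and 19.8 CPM and *WOX5* 1.65, 2.59, 4.45, 4.12, and 4.06 CPM, both with their highest mean at 24 hpg. *CASP1* averaged 245, 39.3, 6.21, 5.40, and 5.43 CPM, so nearly all of the difference lay before 24 hpg.

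**Figure D5:**
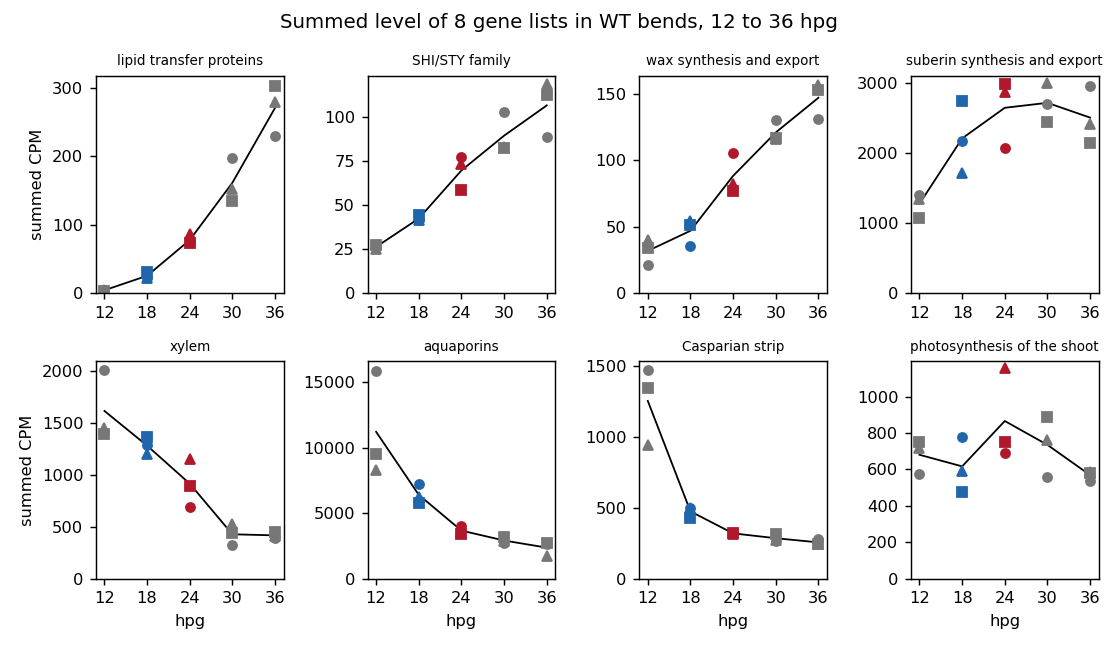
Summed CPM (linear axes from 0) of 8 gene lists in the 3 WT bend libraries at each of the 5 times from 12 to 36 hpg. Blue points are 18 hpg, red points 24 hpg, grey points the other times, marker shapes give replicates 1 to 3, and lines join the means. Lipid transfer proteins summed to 72.6 to 85.7 CPM at 24 hpg and 22.03 to 31.6 CPM at 18 hpg, and aquaporins to 3453 to 3997 CPM and 5755 to 7244 CPM.

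The same step in *puchi-1* bends, 24 against 18 hpg, uses 6 other libraries. *PUCHI* transcript was counted in *puchi-1* too, at means of 30.0 CPM at 24 hpg and 36.9 CPM at 18 hpg, so its count does not check the genotype. At the unadjusted edgeR p with the limit on log2FC, 204 genes (0.788%) were higher and 201 (0.776%) lower in that step, and at the unadjusted p alone 614 (2.37%) and 490 (1.89%). Of the 539 genes higher in the WT step, 74 (13.7%) were among the 204, and of the 261 lower ones 17 (6.51%) were among the 201. In the xylem list 8 of 15 genes were lower in the *puchi-1* step at the unadjusted p, with a median log2FC of -0.59, and *CESA8* averaged 35.01 CPM at 24 hpg and 61.4 CPM at 18 hpg.

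Whether the step itself differed between *puchi-1* and the WT was tested as an interaction. EdgeR called 0 of 25889 genes (0.0%), DESeq2 called 0 as well, and the smallest adjusted p of edgeR was 0.991. At an unadjusted p under 0.05, 1103 of the 25889 genes differed, 394 of them with a difference of log2FC beyond 1 or -1. No difference of the step was thus detectable for any single gene, including those named next. The means of some surface genes lay far apart in level. *PDF1* averaged 0.00797 CPM in *puchi-1* at 24 hpg and 0.134 CPM in *puchi-1* at 18 hpg, against 22.9 CPM in the WT at 24 hpg and 2.95 CPM in the WT at 18 hpg. *CER3* averaged 4.98 and 5.102 CPM in *puchi-1* at 24 and 18 hpg, against 33.1 and 18.8 CPM in the WT, a difference of the step of -0.85 (unadjusted p = 0.0151 by edgeR). *WOX5* averaged 3.18 and 4.04 CPM in *puchi-1* at 24 and 18 hpg, against 4.45 and 2.59 CPM in the WT, a difference of -1.13 (unadjusted p = 0.00319 by edgeR). *AUX1* averaged 82.1 and 80.1 CPM in *puchi-1* at 24 and 18 hpg, against 107 and 146 CPM in the WT, a difference of 0.49 (unadjusted p = 0.0110 by edgeR). For the xylem genes the difference was small, at 0.24 for *CESA8* and 0.29 for *CESA7*.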

How the data were processed

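The authors demultiplexed reads with bcl2fastq (version 2.20), used TopHat2 (version 2.1.1), which calls Bowtie2 (version 2.3.5.1), for alignment to TAIR10.1, and counted stranded poly(A) reads per gene on the reverse strand with featureCounts (version 2.0.0). They deposited raw counts, whole numbers with no filter or normalization, for 37973 rows. Of these, 7716 were at 0 in every library, and 87 organellar rows took 0.07 to 0.3622% of each library. Names and positions were matched to the RefSeq TAIR10.1 gene table for 37880 rows.

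Genes with at least 15 reads summed over 36 libraries (25889) were analysed in R (version 4.3.3). EdgeR (version 4.0.16) quasi-likelihood tests with TMM scaling were fitted to 12 groups of 3 biological replicates, with 24 residual degrees of freedom and a biological coefficient of variation of 0.268. DESeq2 (version 1.42.0) and other sets of libraries were alternatives. P-values were adjusted by Benjamini-Hochberg, for edgeR over all genes tested, and tests are two-sided. DESeq2 adjusted over fewer genes, with no adjusted p for 4523 genes on the 12 groups and 1357 on the 6 libraries. CPM were computed from TMM-scaled library sizes, and log2 CPM with a prior count of 2.

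Named genes were, per direction, the 12 with the smallest edgeR p among those with a log2FC beyond 1 or -1, a mean of at least 1 CPM in the higher group, no overlap between groups, and a symbol, besides members of 46 gene lists with 618 entries. The comparison and the lists were chosen with earlier results of these data known, and the secondary wall element was added after the files were seen. Lists are described by counts and medians with no test. Promoter windows are the 250 bases before the annotated gene start. Replicate numbers are those of the source names, and the sample titles number several libraries differently. Deviations from the group mean had an r of 0.304, -0.182, and 0.0791 for same-numbered replicates 1 to 3. A differently numbered pair, 24 hpg replicate 3 and 18 hpg replicate 2, had an r of 0.292, so the numbers were not taken as pairs. Scripts were tested on simulated counts. Differences between libraries in handling or date were not modelled in the main fit.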

Additional observations from a re-analysis of the deposited data

How the results depend on the processing

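The number of genes called, 0 with edgeR on the 12 groups, was 55 with DESeq2 on the 12 groups, 383 with DESeq2 on the 6 libraries, 115 with edgeR on the 15 WT bends, 270 with edgeR on the 30 bends of both genotypes, and 2 (AT1G02650 and AT2G18560) with the month in the sample titles as a covariate. It stayed 0 under RLE size factors, with no filter, with filterByExpr, and with edgeR on the 6 libraries. On the 12 groups it also stayed 0 with any of the 6 libraries of the comparison left out. Libraries outside the comparison were not left out singly for this count. With the replicate number as a block it was 1 (AT2G01990), and 610 genes were higher and 281 lower at the unadjusted p. The r of same-numbered libraries was 0.304 for replicate 1 and -0.182 for replicate 2, and a differently numbered pair had 0.292, so the block has no clear basis. The 539 genes higher at the unadjusted p became 343 with the month covariate, 152 on July libraries alone, and 206 without 24 hpg replicate 3 and 18 hpg replicate 1, a pair left out after the data were seen. The 261 lower genes became 426 with DESeq2 on the 6 libraries, 414 on the WT bends, 519 on the 30 bends, and 110 without that pair. Leaving out single libraries gave 357 to 596 higher genes (357 without 24 hpg replicate 3, 360 without 18 hpg replicate 1), 162 to 301 lower genes (162 and 165 without the same libraries), and 16 to 110 calls on the WT bends (26 without 24 hpg replicate 3 and 28 without 18 hpg replicate 3). The cause of these differences was not tested. The genotype interaction stayed at 0 and the late contrast, 3251 genes, at 2761 to 3619. Of 118 named or listed genes, each kept its direction under these settings. The libraries dated July alone (2 at 24 hpg and 1 at 18 hpg) gave 1 exception, *FIT* (AT2G28160), a regulator of iron uptake. Its log2FC was 0.36 there, against -0.90 in the main fit. Nearly all of the 118 were chosen by their p in the same libraries, so the kept directions were largely fixed by that choice. Genes such as *FAR1*, *LTP8*, *ESB1*, and *IAA27*, without an unadjusted p under 0.05 by edgeR on the 12 groups, were not among the 118. Genes with few reads at 18 hpg, such as *ATML1*, rest on small counts there.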

Other observations

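Patterning genes of the HD-ZIP III family, which act in vascular and meristem polarity, had small positive log2FC. *PHB* had 76.4, 75.6, and 80.5 CPM at 24 hpg, against 52.8, 70.5, and 60.6 CPM at 18 hpg (log2FC 0.34), and *PHV* 35.2, 41.4, and 43.5 CPM at 24 hpg, against 32.1, 33.7, and 34.5 CPM at 18 hpg (log2FC 0.26). Neither passed DESeq2 (adjusted p = 0.331 and 0.260), and both groups were without overlap. *REV* and *ATHB-15* of the same family had log2FC of 0.06 and -0.05. Among phloem genes, *APL*, a MYB factor of phloem identity, had 21.2, 17.5, and 21.5 CPM at 24 hpg, against 18.0, 14.8, and 15.1 CPM at 18 hpg, with overlap (log2FC 0.33), and the 13 phloem genes had a median log2FC of 0.10.

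Stress-linked genes varied widely among replicates of each time. *WRKY40*, a factor induced by wounding and microbial signals, had 29.5, 69.7, and 169 CPM at 24 hpg, against 2.19, 87.3, and 165 CPM at 18 hpg. The 22 jasmonate and wounding genes tested summed to 891, 1406, and 2186 CPM at 24 hpg, against 454, 1389, and 1964 CPM at 18 hpg, with 18 hpg replicate 1 the lowest and 24 hpg replicate 3 the highest, the libraries that also stood apart on the second principal component. The windows before 6 of 11 evening clock genes (54.5%) held the evening element AAAATATCT, against 2.45% of all windows, while those genes had a median log2FC of 0.10. The mitotic activator core AACGG stood in 14 of 26 windows of mitotic genes (53.8%), against 21.3% of all windows, and their median log2FC was -0.12.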
